A study of Mus musculus with 6 samples.

Results

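The complement genes examined here were the 8 genes of the deposited table named C3, C4b, C1ra, C1s1, Cfb, Cd55, Cd59a and Serping1, out of 54532 genes in all, and each name matched 1 row. They were compared between MC3T3-E1 cells, a mouse pre-osteoblast line, kept for 3 days in osteogenic medium (OM) and the same line kept for 3 days in osteogenic medium with 0.2 mM metformin (OM + Met), an oral biguanide that lowers blood glucose. Each group held 3 samples, which the study's methods call biological replicates, and both groups shared the osteogenic medium, which contained ascorbic acid, β-glycerophosphate and 10 nM dexamethasone. The labels give neither the dose nor the time, which come from the study's text. All samples are of 1 established cell line in culture, which holds no other cell type of bone by design.

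Complement is a cascade of plasma and tissue proteins in which each protease cleaves the next component. In the classical pathway, C1q binds its target and activates the proteases C1r and C1s, which cleave C4 and C2. All pathways meet at C3, whose fragment is deposited on surfaces. In the alternative pathway, factor B pairs with deposited C3b to cleave more C3. C1 inhibitor (Serping1) blocks C1r and C1s, Cd55 speeds the decay of the C3-cleaving enzymes, and Cd59a stops the assembly of the membrane pore. The liver makes most plasma complement, but fibroblasts and osteoblasts also make some components.

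The table gives FPKM, the reads of a gene scaled by its length and by the size of the library, and whole reads could be recovered from it. A sample in OM held 18399861 to 20652437 recovered reads, and a sample in OM + Met 19256672 to 22111790. For the comparison of the groups, limma-trend was fitted to log2(FPKM + 1) of all 12681 genes whose mean reached 0.5 FPKM, and a gene is called where its Benjamini-Hochberg adjusted p-value was under 0.05. Log2 fold changes are on this scale, which understates the change of low genes. Of all tested genes, 13.2% were called higher and 9.28% lower with metformin. A correction for GC content changed this balance, with 2062 genes called higher and 2433 lower in place of 1670 and 1177. In OM, replicate 1 stood apart from the other replicates, and its deviation from them had a Spearman correlation of -0.668 with GC content across genes, which are not independent replicates. Values of the complement genes are therefore given with and without this sample where it matters.

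All 10 osteoblast markers examined, among them Runx2, Sp7, Col1a1 and Ibsp, were above the expression limit, and of these Col1a1 and Col1a2 were called higher and Spp1 and Ibsp lower. Of 10 macrophage markers, Tyrobp, Itgam and the C1q genes had no read in any sample, and Ptprc, Adgre1 and Csf1r were at most 0.0752 FPKM. Only Lyz2 and Cd68 of these markers were tested. The summed level of the 10 macrophage markers was 15.3 to 26.0 FPKM in OM and 27.1 to 30.9 FPKM in OM + Met, most of it Lyz2, which was not called (adjusted p = 0.0771 by limma-trend). Cd68 was called lower, from 1.96, 2.01 and 2.15 FPKM in OM to 1.04, 1.28 and 1.18 FPKM in OM + Met (log2 fold change -0.49, adjusted p = 0.0102). Of 6 adipocyte markers, Fabp4 was tested and not called, and Cidec and Cfd had no read. The 4 endothelial markers summed to at most 0.131 FPKM in a sample. The 4 hepatocyte markers summed to at most 0.0408 FPKM in OM + Met and to 0.0793 to 1.00 FPKM in OM, with the highest value in control replicate 3.

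Of the 8 members, 3 were above the expression limit, and all 3 differed between the groups. The C1 proteases C1ra and C1s1 rose with metformin, to 2.36 and 2.01 times their mean FPKM in OM, and C3 fell to 0.347 times. C4b, Cfb, Serping1, Cd55 and Cd59a were below the limit in both groups. So 2 of the 3 tested members were called higher, beside 13.2% of all tested genes, and 1 of 3 was called lower, beside 9.28%, while the other 5 members were not tested. The order of the mean levels per length was C1ra, C1s1 and C3, and then, far below, Cd59a, C4b, Serping1, Cfb and Cd55. Within every sample C1ra lay above C1s1. Across samples their ranges overlapped in OM, through C1s1 of control replicate 1, and not in OM + Met. Because these are bulk RNA samples, a smaller share of expressing cells and less RNA per cell cannot be told apart.

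**Figure D1:**
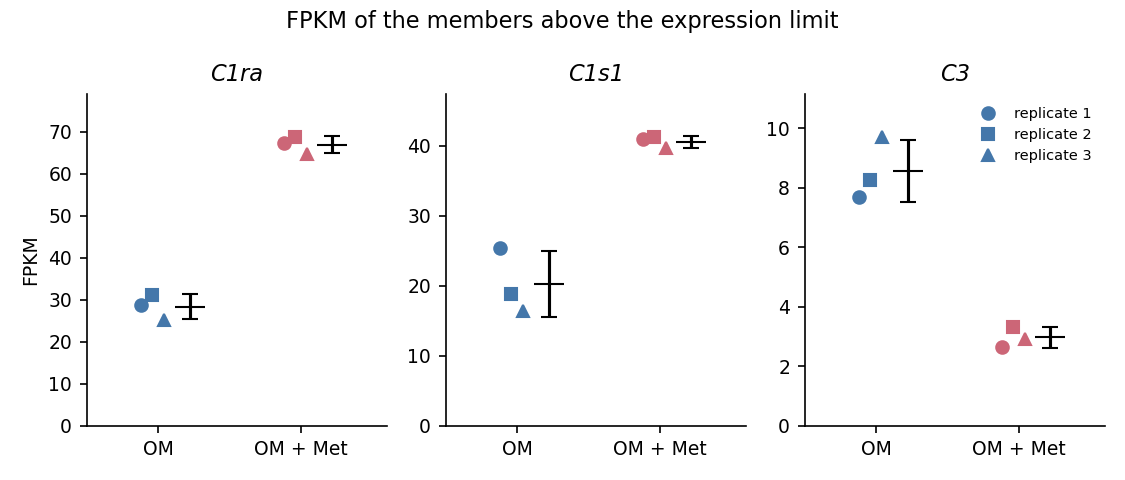
FPKM of C1ra, C1s1 and C3 in each sample (y axis, from 0) in osteogenic medium (OM) and with metformin (OM + Met). Points are samples, shaped by replicate number, and bars are the mean ± SD (n = 3). The OM + Met samples lie above OM for C1ra and C1s1 and below OM for C3, and C1s1 of control replicate 1 lies above the other controls.

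The genome around the start of C3 and C1s1 is shown because these members moved in opposite directions. The 250 bases before the RefSeq start (for C1s1 the first of 2 starts) are printed 5′ to 3′ on the strand of the gene (GRCm38.p6). Capitals mark matches to the motifs searched, which are described after the values. For C1ra only the first 34 of the 250 bases lie before the first annotated exon, so its window is not printed. RefSeq promoter windows were matched for 5 of the 8 members, which are C1ra, C1s1, C3, Cd55 and Cd59a.
C3, chr17:57228137-57228386, minus strand: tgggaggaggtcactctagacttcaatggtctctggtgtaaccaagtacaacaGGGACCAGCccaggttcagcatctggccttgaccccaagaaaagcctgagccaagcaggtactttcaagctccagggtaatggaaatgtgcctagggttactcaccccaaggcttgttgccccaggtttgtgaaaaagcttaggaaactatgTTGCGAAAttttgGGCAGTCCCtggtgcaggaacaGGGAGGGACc
C1s1, chr6:124542360-124542609, minus strand: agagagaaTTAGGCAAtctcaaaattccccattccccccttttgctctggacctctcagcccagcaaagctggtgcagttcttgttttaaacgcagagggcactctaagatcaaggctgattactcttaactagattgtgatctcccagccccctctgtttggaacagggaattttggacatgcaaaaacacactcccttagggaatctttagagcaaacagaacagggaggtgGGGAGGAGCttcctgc

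C1ra (ENSMUSG00000055172, chromosome 6, 124512405 to 124523443, plus strand) encodes C1r, the protease that is activated first within the C1 complex and then cleaves C1s. Its level was 28.8, 31.0 and 25.1 FPKM in OM and 67.3, 68.8 and 64.8 FPKM in OM + Met, in the order of the replicate numbers. The groups did not overlap, and the spread within each was small beside the distance between them. The mean was 28.3 ± 2.99 FPKM (SD, n = 3) in OM and 67.0 ± 2.04 FPKM (SD, n = 3) in OM + Met. The log2 fold change was 1.22 (standard error 0.10, 95% interval 0.98 to 1.46, adjusted p = 0.000401 by limma-trend). These values rest on 1471 to 1940 reads per control and 3762 to 4471 reads per sample with metformin. C1ra was among the more abundant transcripts, with a mean FPKM above that of 92.5% of the tested genes. Its rise was the 325th largest of the 12681 tested genes.

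C1s1 (ENSMUSG00000038521, chromosome 6, 124530345 to 124542359, minus strand) encodes C1s, the protease of C1 that cleaves C4 and C2. Its level was 25.4, 18.8 and 16.4 FPKM in OM and 40.9, 41.2 and 39.6 FPKM in OM + Met. All 3 samples with metformin lay above all 3 controls, as they did for C1ra and for 23.6% of all tested genes. The mean was 20.2 ± 4.67 FPKM (SD, n = 3) in OM and 40.6 ± 0.867 FPKM (SD, n = 3) in OM + Met. The log2 fold change was 0.99 (standard error 0.16, 95% interval 0.62 to 1.36, adjusted p = 0.00560 by limma-trend). Control replicate 1 was the highest control of C1s1, and the longest transcript of C1s1 has a GC content of 47.0%, lower than that of C1ra (50.9%) and C3 (53.3%). Without control replicate 1 the log2 fold change of C1s1 was 1.16 (adjusted p = 7.96e-05 by limma-trend). That fit also called more genes, with 2969 of all tested genes higher, beside 1670 with all samples.

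The ratio of C1ra to C1s1 FPKM was 1.65, 1.67 and 1.64 in the samples with metformin and 1.65 and 1.53 in control replicates 2 and 3. In control replicate 1 it was 1.13. The ratio of C1ra to C3 FPKM was 2.59 to 3.76 in OM and 20.7 to 25.4 in OM + Met. Both ratios are given as descriptions, and with 3 samples against 3 an exact two-sided permutation test could not give a p-value below 0.10.

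The 2 protease genes point towards each other on chromosome 6 with 6901 bases between their ends. The nearest tested gene on the other side of C1ra was C1rl, which encodes a C1r-like protease, 1761 bases away. C1rl rose from 3.51, 4.05 and 3.96 FPKM in OM to 5.69, 5.40 and 5.18 FPKM in OM + Met (log2 fold change 0.41, adjusted p = 0.0156 by limma-trend). When each sample was left out in turn, C1rl was called in 3 of the 6 fits. Beyond C1s1 the nearest tested gene was Lpcat3, 120667 bases away, with a log2 fold change of -0.02 (adjusted p = 0.905). The duplicated copies of the proteases, C1rb and C1s2, lie in the same region and stayed below the limit. C1rb had 4 to 12 reads per control and 10 to 17 with metformin, and C1s2 had 3 to 8 reads in every sample. The longest transcript of C1ra is 97.9% identical to C1rb over 2432 bases, and that of C1s1 is 96.0% identical to C1s2 over 2644 bases. The counting of reads that match both copies is not given in the sources used here, so the levels of C1ra and C1s1 are uncertain to that extent. C1ra also shares 96.6% over 506 bases with Gm18840. C1s1 also overlaps the antisense gene Gm16567, which had no read.

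C3 (ENSMUSG00000024164, chromosome 17, 57203970 to 57228136, minus strand) encodes the component on which all pathways meet. Its level was 7.68, 8.25 and 9.70 FPKM in OM and 2.65, 3.33 and 2.91 FPKM in OM + Met. The highest sample with metformin was below every control, as for 20.5% of the tested genes. The mean was 8.54 ± 1.04 FPKM (SD, n = 3) in OM and 2.96 ± 0.344 FPKM (SD, n = 3) in OM + Met, which is 2.88 times higher in OM. The log2 fold change was -1.27 (standard error 0.11, 95% interval -1.54 to -0.996, adjusted p = 0.000526 by limma-trend). C3 had 721 to 981 reads per control and 270 to 373 reads per sample with metformin. The decrease was the 109th largest of the tested genes, at a mean level above that of 45.1% of them. C3 was highest in control replicate 3, the sample with the most hepatocyte marker RNA, and without that sample the log2 fold change was -1.18 (adjusted p = 0.00214 by limma-trend). Of the 2 tested macrophage markers, Cd68 also fell with metformin, as given above. Lyz2 went the other way, from 13.1 to 24.0 FPKM in OM to 25.9 to 29.6 FPKM in OM + Met, and was not called. The part of such cells in the level of C3 was not tested.

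The nearest tested neighbour of C3 at higher coordinates was Gpr108, 6498 bases away. Gpr108 was at 33.0, 39.0 and 38.0 FPKM in OM and 26.9, 26.2 and 26.9 FPKM in OM + Met, and it also fell (log2 fold change -0.44, adjusted p = 0.0161 by limma-trend). On the other side the nearest tested gene was Khsrp, 172447 bases away, with a log2 fold change of 0.42 (adjusted p = 0.214). Neighbours were looked up after the values of the members had been seen.

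The 5 genes whose profile over the 6 samples was most like that of C3 were Rgl1, Clmp, Axin2, Itgb3 and Gabarapl1, out of 7451 other tested genes with a mean of at least 5 FPKM. Their Pearson correlations of log2(FPKM + 1) with C3 were 0.998, 0.998, 0.997, 0.996 and 0.996 over 6 samples that form 2 groups, so a difference between the groups raises the value. Their log2 fold changes were -0.42, -0.65, -1.33, -0.80 and -1.05. Axin2, a feedback inhibitor of Wnt signalling, went from 13.1, 15.8 and 18.6 FPKM in OM to 5.05, 6.21 and 5.68 FPKM in OM + Met.

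Below the expression limit, C4b and Cd59a had a few reads in most samples. C4b (ENSMUSG00000073418, chromosome 17, 34728380 to 34743882, minus strand) encodes C4, the substrate of C1s. It had 12, 26 and 24 reads in OM and 6, 8 and 12 reads in OM + Met. In FPKM the samples with metformin (0.0531 to 0.108) lay just below the controls (0.115 to 0.218), while in reads a sample of each group had 12. Of the genes under the limit with at least 10 reads in all, 12.9% had every sample with metformin below every control. On recovered reads of all genes with a read, the log2 fold change of C4b by voom was -1.26 (95% interval -2.31 to -0.20, adjusted p = 0.129), so the difference did not pass the test. C4a, a copy that is 96.0% identical to C4b over 5378 bases, had 24, 63 and 48 reads in OM and 28, 38 and 54 reads in OM + Met. How reads that match both copies were counted is not given, so the levels of C4b and C4a are uncertain to that extent.

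Cd59a (ENSMUSG00000032679, chromosome 2, 104095801 to 104115354, plus strand) encodes the membrane inhibitor of the terminal pore. It had 1, 6 and 0 reads in OM and 15, 10 and 8 reads in OM + Met. The samples with metformin were all above the controls, as for 9.5% of the genes under the limit with at least 10 reads in all. The log2 fold change of Cd59a by voom was 2.66 (95% interval 0.92 to 4.403, adjusted p = 0.0530), and without a filter limma-trend gave an adjusted p-value of 0.0918, so neither test passed. Its copy Cd59b had at most 2 reads in a sample.

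**Figure D2:**
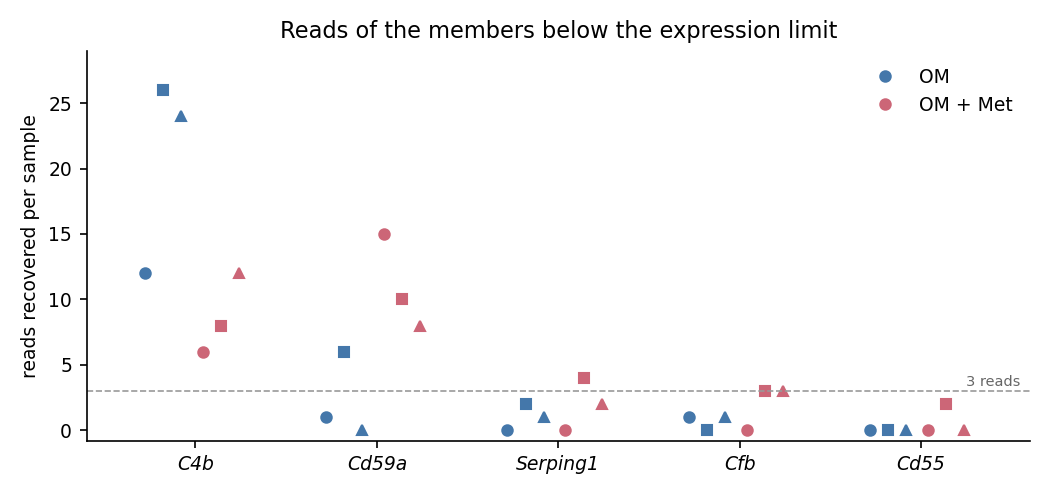
Reads recovered per sample (y axis) for the 5 members below the limit of 0.5 FPKM, in osteogenic medium (OM) and with metformin (OM + Met). Points are samples, shaped by replicate number as in the plot of FPKM, and the dashed line marks 3 reads. C4b has 12 to 26 reads in OM and 6 to 12 with metformin, Cd59a has 0 to 6 and 8 to 15, and the other genes have at most 4 reads.

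The remaining 3 members were at or near 0. Serping1 (ENSMUSG00000023224, chromosome 2, 84765387 to 84775444, minus strand), the gene of the C1 inhibitor, had 0, 2 and 1 reads in OM and 0, 4 and 2 reads in OM + Met. Thus the inhibitor of C1r and C1s was at most 0.0790 FPKM in samples where C1ra was at 25.1 to 68.8 FPKM. Cfb (ENSMUSG00000090231, chromosome 17, 34856374 to 34862518, minus strand), the gene of factor B, had 1, 0 and 1 reads in OM and 0, 3 and 3 reads in OM + Met. Cfb shares 2248 identical bases with Gm20547, which overlaps it on the same strand and had no read in any sample. How reads in such an overlap were counted is not given in the sources used here, so the low value of Cfb is uncertain. Cd55 (ENSMUSG00000026399, chromosome 1, 130439027 to 130462744, minus strand), the gene of decay-accelerating factor, had 2 reads in 1 sample with metformin and 0 in the other 5. A count of 0 for Cd55 allows up to 0.0339 FPKM at these depths, for counting error only. Cd55b, its copy, had no read. No difference was detectable at this depth for these 3 genes, with voom intervals of -1.57 to 2.53 for Serping1, -1.26 to 2.77 for Cfb and -0.92 to 2.33 for Cd55 on the log2 scale.

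The other genes of the pathway place these values. Of 51 further complement genes, 10 were tested, 4 were called higher with metformin, 0 were called lower and 6 were not called. Voom on the tested genes also called 0 of the 10 lower. At an unadjusted p-value under 0.05 by limma-trend 1 of the 10, Cfp, was lower. The median log2 fold change of the 10 was 0.18, beside 0.01 for all tested genes, and 13.2% of all tested genes were called higher. Among the 41 genes that were not tested, 16 had no read in any sample, and the highest value was 0.549 FPKM, for Susd4. Voom over all genes with a read called Csmd3 lower and Cd93 higher among them (adjusted p = 0.0201 and 0.00126 by voom). Csmd3 had 27, 12 and 18 reads in OM and 1, 0 and 6 in OM + Met. Cd93 had no read in OM and 8, 6 and 5 reads in OM + Met, so both were near 0.

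In the classical pathway, the recognition subunits C1qa, C1qb and C1qc had no read in any sample, which allows at most 0.158, 0.151 and 0.0851 FPKM. C2, the partner of C4, had 3 to 20 reads per control and 9 to 22 with metformin. Gm20547 overlaps C2 on the same strand too, so the low value of C2 is uncertain as for Cfb. As counted, C1ra and C1s1 thus stood beside C1q, C2 and C4 genes with few or no reads. In the lectin pathway, Masp1, the gene of a protease related to C1r and C1s, rose from 16.4, 14.2 and 14.4 FPKM in OM to 22.1, 22.3 and 21.7 FPKM in OM + Met (log2 fold change 0.53, adjusted p = 0.00671 by limma-trend). Masp1 was called in all 14 alternative fits. Colec12, a scavenger receptor of the collectin family, was at 64.7 to 89.2 FPKM in OM and 68.8 to 73.0 FPKM in OM + Met and was not called.

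In the alternative pathway, Cfd, the gene of the protease factor D, had no read. Cfp, the gene of properdin, which stabilizes the C3-cleaving enzyme, was at 1.26, 2.25 and 2.90 FPKM in OM and 0.871, 1.03 and 1.24 FPKM in OM + Met. All samples with metformin lay below all controls for Cfp, as for 20.5% of the tested genes. It was not called (log2 fold change -0.58, adjusted p = 0.0880 by limma-trend). Without control replicate 1 the log2 fold change of Cfp was -0.80 and it passed (adjusted p = 0.00317 by limma-trend). Passing was commoner in that fit, which called 2590 of all tested genes lower, beside 1177 with all samples. The pass of Cfp is therefore not a change of this gene alone.

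Among the regulators, Cfi, the gene of the protease that inactivates C3b, had no read. Clu, the gene of clusterin, a fluid-phase inhibitor of the pore, rose from 4.92, 4.62 and 3.64 FPKM to 6.83, 7.01 and 7.03 FPKM (log2 fold change 0.57, adjusted p = 0.0115). C1qbp, whose product is mostly mitochondrial and is also known as a C1q-binding protein, rose from 19.4, 25.6 and 26.5 FPKM to 33.3, 32.6 and 33.2 FPKM (log2 fold change 0.47, adjusted p = 0.0423). When each sample was left out in turn, Clu was called in 3 and C1qbp in 2 of the 6 fits. Over all 14 alternative fits, Clu was called in 10 and C1qbp in 7. Cr1l, the rodent membrane inhibitor of C3 activation also known as Crry, was at 5.12 to 7.45 FPKM in OM and 5.10 to 5.78 FPKM in OM + Met and was not called. With Cd55, Cd59a and Cd46 below the limit, Cr1l was the one membrane regulator of the lists that was tested.

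Of the terminal components, C8g was tested, at 2.05 to 3.23 FPKM in OM and 2.12 to 2.44 FPKM in OM + Met, and it was not called. Without control replicate 1 C8g was lower (log2 fold change -0.32, adjusted p = 0.0256 by limma-trend). As given for Cfp, that fit called 2590 of all tested genes lower, beside 1177 with all samples. Hc, the gene of C5, and C6, C7, C8a, C8b and C9 were at most 0.0356 FPKM in every sample. Of the receptors, Itgb2 was tested and not called (log2 fold change -0.14), and the anaphylatoxin receptors C3ar1, C5ar1 and C5ar2 were at most 0.0357 FPKM.

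**Figure D3:**
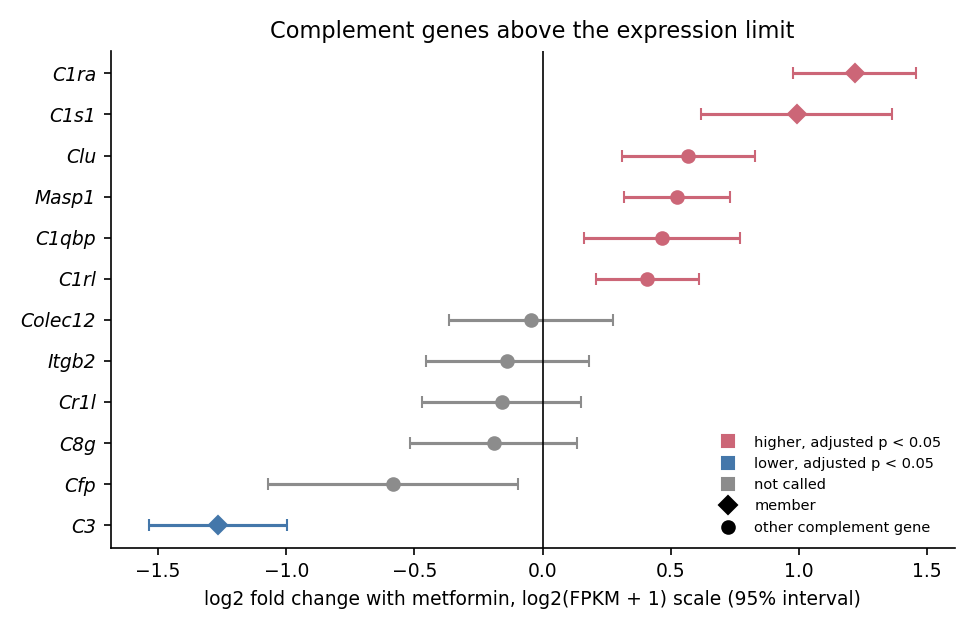
Log2 fold change with metformin (x axis, log2(FPKM + 1) scale) for 12 complement genes above the expression limit, with 95% intervals. Diamonds are members, circles are other complement genes, and colour gives the call by limma-trend (adjusted p-value under 0.05). C1ra (1.22) and C1s1 (0.99) lie at the top, and C3 (-1.27) lies at the bottom.

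The promoter windows were searched on both strands for 5 motifs, TTGCNNAA (C/EBP), GGGANNNNC (NF-kB), TTCNNNGAA (STAT), GAAANNGAA (ISRE) and ACANNNTGT (glucocorticoid receptor). In the 250 bases before C3, printed with the coordinates above, there was 1 C/EBP match, TTGCGAAA, at -45 to -38 from the start. A C/EBP match was present in 9.6% of the 32851 promoter windows. Before C1s1 a C/EBP match on the other strand, TTAGGCAA, lay at -242 to -235. The NF-kB pattern matched C3 in 3 places, C1s1 in 1 before its first start and C1ra in 1, but 49.0% of all windows hold it. The window of the second start of C1s1 held 1 more match, GCCACTCCC at -34 to -26, which does not lie outside annotated exons. Cd55 and Cd59a also had NF-kB matches. The match of C1ra does not lie outside annotated exons, unlike those of C3. The STAT, ISRE and glucocorticoid receptor patterns, present in 7.0%, 7.1% and 5.8% of windows, had no match before C3, C1s1 or C1ra, and Cd59a had 1 ISRE match. No match says only that these letters are not in the window. A match is a description of the sequence and not evidence of binding.

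C1ra, C1s1 and C3 were called in all 14 alternative fits, which are shown in the plot of changes under other processing. When calls were also limited to log2 fold changes of at least 1 in size, C1s1 (0.99) lost its call. The range of log2 fold changes was 1.14 to 1.28 for C1ra, 0.86 to 1.16 for C1s1 and -1.52 to -1.18 for C3.

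**Figure D4:**
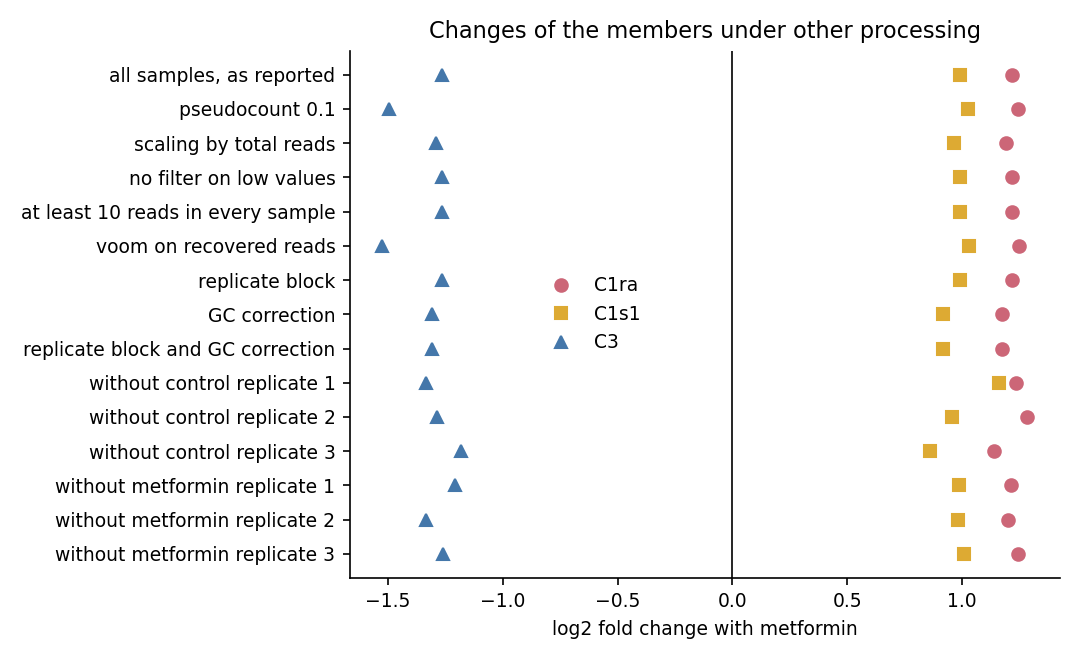
Log2 fold change with metformin (x axis) of C1ra, C1s1 and C3 with all samples and under 14 alternative fits (y axis). Each point is 1 fit. C1ra lies between 1.14 and 1.28, C1s1 between 0.86 and 1.16 and C3 between -1.52 and -1.18, so that no point crosses 0.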

How the data were processed

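RNA of 6 samples of MC3T3-E1 cells was sequenced and the authors deposited 1 table of 54532 genes. Its header names no unit. The values were identified as FPKM because multiplying them by the listed gene length gave whole numbers of reads, at 1 step size for each sample (100% of values above 0, tolerance 0.001 of a read, wider in proportion for the highest counts). The library sizes that these steps imply differ from the read totals, so the authors scaled the deposited FPKM by an effective size. The counter and whether counting used strand are not given in the sources used here. The submitters' processing notes list the aligner Bowtie 0.12.2 and the builds mm8 and mm9, with no role, while the table's identifiers and coordinates are those of GRCm38 (53499 of 54532 identical in GENCODE M21, and all 8 members). The authors tested counts with DESeq2 1.20.0, a test that the deposited FPKM cannot enter as the main one.

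The table had 0 other per-sample columns. Limma 3.58.1 (R 4.3.3, trend) was run on log2(FPKM + 1) over 12681 genes with a mean of at least 0.5 FPKM, with Benjamini-Hochberg adjustment. The same fit was run on drawn counts with planted changes, as a check of the code only. Those counts held no sample set apart as control replicate 1 is, so they cannot show how that sample affects the calls. Recovered reads gave the depth. Intervals come from the fits and rest on the spread between samples of a group, moderated across genes. The limit of 3 reads for a count of 0 covers counting error only. As alternatives the pseudocount was set to 0.1, total reads were used for scaling, the filter was dropped or set to 10 reads in every sample, voom was run on the recovered reads, the replicate block, a GC correction (spline with 5 degrees of freedom, longest transcript) or both were added, each sample was left out in turn, and calls were limited to log2 fold changes of at least 1 in size. Voom over all genes with a read was added after seeing the data. Same-numbered samples did not deviate together, so the block is an alternative.

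The members and lists were chosen with earlier results of these data known. All members and the tested genes of the complement list are named, except 1 regulator that enters the counts and is not reported here, as are the copies that can share reads and the called genes of a list of acute-phase genes and their regulators. Near-identical transcripts were found with BLAST+ 2.17.0 (at least 200 bases). Promoter sequences are from RefSeq (GRCm38.p6). The plots were made in matplotlib 3.10.9.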

Additional observations from a re-analysis of the deposited data

How the results depend on the processing

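The 3 called members kept their direction and call in the 14 alternative fits, with adjusted p-values (limma-trend or voom) of at most 0.00523 for C1ra, 0.0332 for C1s1 and 0.00565 for C3. With calls limited to log2 fold changes of at least 1 in size, C1s1 lost its call, which left 2 of the 3. Of the further complement genes, 4 were called higher and 0 lower with all samples. With the replicate block 2 were higher (C1rl and C1qbp lost their calls). C1qbp also lost its call with scaling by total reads (adjusted p = 0.0681 by limma-trend) and with no filter (0.0785), and Clu with the replicate block and GC correction (0.0577). In turn, 1 (Cfp) was lower with the GC correction and with the replicate block and GC correction. Over the 6 fits that left out 1 sample, 1 to 5 were higher and 0 to 2 lower, with both maxima without control replicate 1 and 1 higher without each of the metformin replicates. The log2 fold change of Colec12, which was not called, ranged from -0.13 to 0.10 over these fits and was above 0 without control replicate 1 alone. Over all tested genes, lower calls were 698 with the replicate block, 2433 with the GC correction and 1888 with both. Leaving out 1 sample gave 938 to 2969 higher and 495 to 2590 lower, least without metformin replicate 1 and most without control replicate 1. The cause was not tested. The deviations from the group means correlated at -0.0534, 0.000265 and -0.0549 for samples sharing a number, so the numbers were not taken as pairs, and no control correlated best with its own number. Depth limits the 5 members under 0.5 FPKM, of which C4b, with 62 reads in OM and 26 with metformin, had the most.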

Other observations

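C3 is also an acute-phase gene, so a list of 28 acute-phase genes and their regulators was examined. Of these, 24 were tested, 2 were called higher with metformin and 7 lower, beside 13.2% higher and 9.28% lower of all tested genes. Several genes of plasma proteins fell. Hp, the gene of haptoglobin, went from 267.8, 295.3 and 252.6 FPKM in OM to 91.1, 90.5 and 83.6 FPKM in OM + Met (log2 fold change -1.61, adjusted p = 0.000147 by limma-trend). Orm1, the gene of an orosomucoid, went from 42.2, 79.0 and 61.7 FPKM to 16.4, 18.9 and 19.1 FPKM (log2 fold change -1.65, adjusted p = 0.00279). Serpina3n (-0.60, adjusted p = 0.0126) and Lcn2 (-0.46, adjusted p = 0.0217) were also lower, while Orm2 (-0.83, adjusted p = 0.0601) and Cp (-0.45, adjusted p = 0.114) did not pass. Below the expression limit, Serpina3g went the other way, with no read in OM and 5, 3 and 6 reads in OM + Met. It was called higher by voom over all genes with a read (adjusted p = 0.00482) and by limma-trend without the filter (0.0405). Saa3 had 12, 19 and 5 reads in OM and 3, 2 and 4 in OM + Met and was not called by voom (adjusted p = 0.138). Saa1 and Saa2 had no read.

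Il6ra, the gene of the ligand-binding chain of the interleukin 6 receptor, went from 7.93, 5.45 and 7.61 FPKM to 2.04, 2.19 and 2.17 FPKM (log2 fold change -1.34, adjusted p = 0.000905 by limma-trend), and Stat3 was lower by a smaller step (-0.49, adjusted p = 0.00555). Il6 (0.47, adjusted p = 0.0691), Il6st (0.21, adjusted p = 0.230), Osmr (-0.24, adjusted p = 0.271) and Socs3 (0.64, adjusted p = 0.0769) were not called. Lif, the gene of a cytokine, rose by 1.08 (adjusted p = 0.000900), and Nfkbiz, a nuclear regulator of NF-kB, rose by 1.31 (adjusted p = 0.000936). Nfkbia was lower (-0.36, adjusted p = 0.0484), but when each sample was left out in turn, Nfkbia was called in 1, Lcn2 in 2 and Serpina3n in 5 of the 6 fits. The calls of Nfkbia and Lcn2 were also lost with the replicate block (adjusted p = 0.131 and 0.0552 by limma-trend) and when the filter was dropped (0.0721 and 0.0570). Cebpb, which encodes a C/EBP factor, was at 71.9, 339.5 and 323.8 FPKM in OM, with control replicate 1 far below the others, and at 191.9, 181.1 and 170.6 FPKM in OM + Met, and it was not called. Without control replicate 1 its mean in OM + Met was 0.546 times that in OM. Cebpd and Cebpa, which encode other C/EBP factors, were not called either, and their ratios without that sample were 0.604 and 0.733. These ratios are given without a test.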
